A study of Drosophila melanogaster with 19 samples.

Results

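Cytosolic ribosomal protein genes were examined for binding of MSL2, the male-specific subunit of the Drosophila dosage compensation complex, in adult male flies. The genes were taken by symbol from the Release 6 gene table as the protein-coding genes whose names begin with RpL or RpS followed by a digit or P. This gave 92 of the 13911 protein-coding genes on the main chromosomes, 14 on the X and 78 on the autosomes. They comprise 54 genes named for the large subunit and 38 named for the small subunit. A gene was counted as having a peak when a peak summit, its point of highest signal, lay in the gene or within 1000 bases of it.

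The complex coats the male X and increases the output of the genes on it. It holds MSL1, MSL2, MSL3, the acetyltransferase MOF, the helicase MLE and noncoding roX RNAs, and it spreads from strong entry sites to active genes. Cytosolic ribosomal proteins are needed in fixed proportions, and loss of a single copy of many of them gives the Minute phenotype of slow growth and thin bristles. Because X-linked and autosomal genes contribute to the same particle, males must match the output of their single X to that of paired autosomes. Several of these proteins are encoded by paralogue pairs, of which one copy is often used mainly in the germ line.

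MSL2 chromatin immunoprecipitation sequencing was available as peak lists for 2 of the 19 listed samples. The first is from males of genotype M1[wt], and the second is from males of genotype wt, both of strain Oregon-R, 3 days old and taken as whole flies. The series asks what the N-terminal end of MSL1 does, and its other lines include ones named for deletions in it. The sources used here do not say how the M1[wt] line carries its MSL1 or what drives it. Whole flies mix all tissues, so a peak reports no cell type, and more bound cells cannot be told apart from stronger binding per cell.

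Each group has 1 sample. By their names, the lists share 1 control for peak calling, antibody from preimmune serum on male chromatin. The M1[wt] list held 3944 peaks and the wt list 3799, with medians of 35.2 and 22.5 for the authors' strength value, the −log10 p of a peak. The number of reads behind the lists is unknown, and this value grows with it. Values of the lists are therefore given side by side, and no change in strength was computed. With 1 sample a group there is no replicate check and no test was made between the lines. Exact Clopper-Pearson 95% intervals on shares cover counting error only.

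On the X nearly every ribosomal protein gene had an MSL2 peak. A peak lay at 13 of 14 in M1[wt] males (92.9%, interval 66.1 to 99.8%), against 52.0% of all X-linked protein-coding genes. In wt males all 14 had one (100%, interval 76.8 to 100%), against 53.8%. On the autosomes 34 of 78 had a peak in M1[wt] males (43.6%, 32.4 to 55.3%), against 24.0% of autosomal genes. In wt males 32 of 78 did (41.0%, 30.0 to 52.7%), against 22.3%. The shares of these genes were thus above the background of their chromosome class in each list. In each list most autosomal members had none.

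Ribosomal protein genes are short, with a median of 1315 bases against 2161 for all protein-coding genes, and a short gene with its flanks offers less room for a summit. Among protein-coding genes within the members' interquartile length range of 954 to 1680 bases, a comparison chosen after seeing the data, 38.8% on the X and 16.0% on the autosomes had a peak in M1[wt] males. In wt males 44.9% on the X and 13.7% on the autosomes did. Against genes of like length the members' shares therefore stood further apart than against all genes. The range is that of all members, however. X-linked members are longer, with a median of 1603 bases and quartiles of 1146 and 2356. Genes of like length therefore match the X-linked members less closely, here and below. The part that transcription level plays was not tested, since no expression values were used here.

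**Figure D1:**
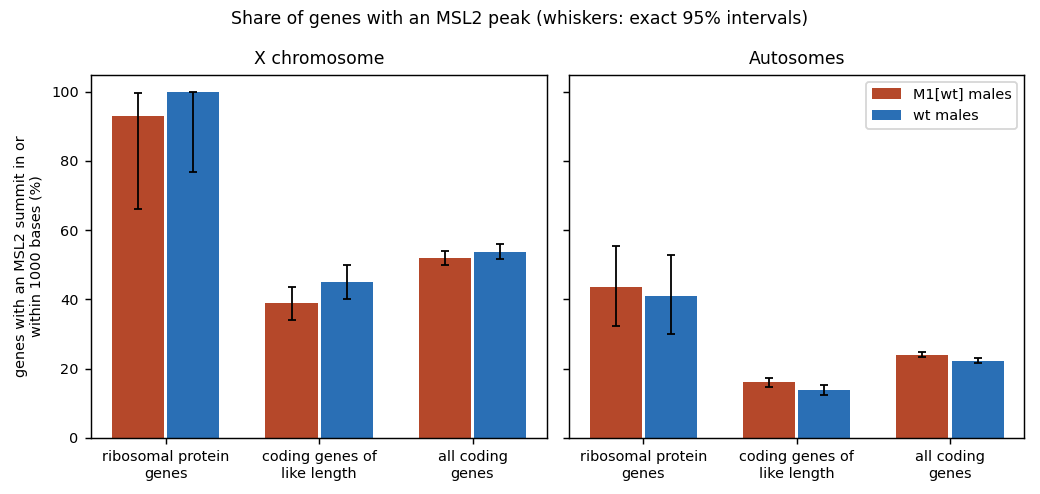
Percentage of ribosomal protein genes, of protein-coding genes in their interquartile length range and of all protein-coding genes with an MSL2 summit in or within 1000 bases, on the X (left) and autosomes (right), in M1[wt] males (red) and wt males (blue); whiskers are exact 95% intervals. Ribosomal protein genes reached 92.9% and 100% when X-linked, and 43.6% and 41.0% when autosomal, above both other gene sets in every panel.

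The X-linked genes for the large subunit are RpL7A, RpL17, RpL22, RpL35, RpL36 and RpL37-1, and all had a peak in both lists. RpL7A had the strongest value of all 92 genes, with a −log10 p of 804 (rank 119) at X:6533911-6535001 in M1[wt] males and 365 (rank 155) at X:6533925-6534968 in wt males (dm6, as all coordinates here). The gene occupies X:6530897-6533348, and the summit lay 964 and 957 bases outside it, within dx, the gene of the Notch pathway regulator Deltex. Summits within the body of RpL7A were far weaker, and the one nearest to a gene end had a −log10 p of 17.6 in M1[wt] males and 11.8 in wt males. The high value of RpL7A therefore rests on the choice of the strongest summit in the window. RpL22, whose product has a germline paralogue, had 76.3 in M1[wt] males and 46.1 in wt males, in intervals 7130 and 5208 bases wide. Those were the widest at any member, and their summits lay 209 and 532 bases from the gene, in a noncoding RNA gene.

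Summit positions at the other large-subunit genes ranged from the gene body to the neighbouring gene. RpL35 had a −log10 p of 75.6 in M1[wt] males and 47.8 in wt males. That summit lay 553 and 554 bases away, and 36 and 35 bases from Rab18, a small GTPase gene. A weaker summit lay inside RpL35 itself, with 47.4 in M1[wt] males and 25.8 in wt males. RpL36 had 39.5 in M1[wt] males and 26.3 in wt males, inside the gene in both. RpL17 had 15.4 in M1[wt] males, from a summit inside the gene. In wt males it had 41.1, from the strongest of 3 summits, 241 bases outside. The 2 lists thus placed the strongest summit of RpL17 on different sides of its end, though the intervals of these peaks overlapped. The wt list also had a weaker summit inside RpL17, with a −log10 p of 12.6. RpL37-1 had 19.2 in M1[wt] males and 13.2 in wt males, inside the gene at 12 and 155 bases from its end.

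The X-linked genes for the small subunit include RpS6, RpS10b, RpS14a, RpS14b, RpS15Aa, RpS19a and RpS28b. RpS28b, a small protein of the subunit head, had the strongest of the X-linked peaks whose summit lay closer to the member than to another coding gene. Its −log10 p was 228 (rank 414) at X:9554344-9555159 in M1[wt] males and 247 (rank 233) at X:9554375-9555114 in wt males. The summit lay 30 and 35 bases outside the gene, which occupies X:9554623-9555661.

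RpS6, the target of S6 kinase, had a −log10 p of 53.9 in M1[wt] males and 41.1 in wt males, inside the gene in both. RpS19a had 49.1 in M1[wt] males and 40.8 in wt males, also inside the gene, but 628 and 6 bases from the nearest end, and its wt interval was 2773 bases wide. RpS10b had the lowest value in wt males when each X-linked member is taken by its strongest peak, with 13.0 in M1[wt] males and 8.88 in wt males, 670 and 675 bases inside the nearest gene end. RpS15Aa was the single X-linked member with a peak in wt males alone (1 of 14 or 7.14%, near the 7.62% of all X-linked genes). Its summit lay 3 bases outside the gene with a −log10 p of 31.6. The nearest M1[wt] summit lay 1124 bases from RpS15Aa, just past the limit. Among autosomal members, the nearest summit to RpS13 lay 912 bases away in wt males, just inside the limit. That to RpS19b, also autosomal, lay 602 bases away in M1[wt] males.

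The adjoining genes RpS14a and RpS14b, tandem copies that encode the same protein, shared 1 peak in each list. That peak was the strongest assigned to RpS14a, with a −log10 p of 11.4 in M1[wt] males and 22.5 in wt males. RpS14b had a stronger one on its other side, with 59.5 in M1[wt] males and 32.2 in wt males, 483 and 413 bases outside it and within the neighbouring gene Ubr3. The shared peak makes these genes a single observation for that site.

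Among the first 500 peaks of a list ranked the strongest peak of 2 of 13 X-linked members in M1[wt] males, against 29.7% of all X-linked genes with a peak, and of 3 of 14 in wt males, against 25.2%. Their median −log10 p was 53.9 in M1[wt] males and 40.9 in wt males, against 63.0 and 36.4 over all X-linked genes with a peak and 32.8 and 25.4 over those of like length. With a −log10 p of at least 50 asked of a peak, 7 of 14 had one in M1[wt] males, against 28.5% of X-linked genes, and 3 of 14 in wt males, against 22.6%. At that limit the X-linked members no longer stood above their background in wt males. The median distance to the 200 strongest X peaks was 10008 bases for the members in M1[wt] males, against 19588 for all X-linked protein-coding genes. In wt males it was 28970 against 19463, so the members lay closer than the median gene in one list and farther in the other. Within 1000 bases of such a peak lay 1 member in M1[wt] males, RpL7A, and 2 in wt males, RpL7A and RpS28b. The share of all X-linked genes that close to one was not counted, so this is an account of the members only.

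**Figure D2:**
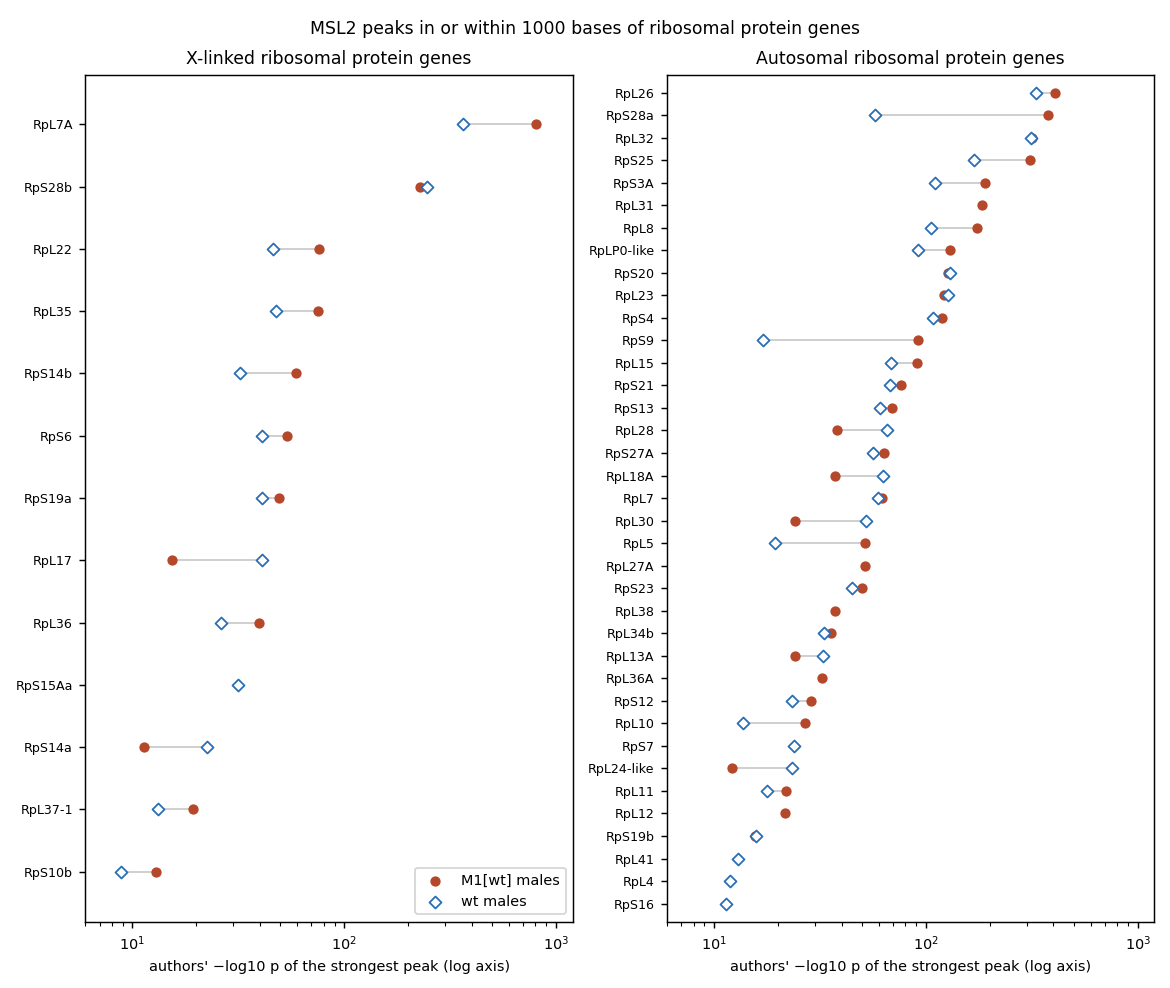
Authors' −log10 p (log axis) of the strongest MSL2 peak at X-linked (left) and autosomal (right) ribosomal protein genes with a peak, 2 of them not drawn, in M1[wt] males (filled red circles) and wt males (open blue diamonds); a gene with 1 symbol had a peak in that list alone. RpL7A reached 804 in M1[wt] males and 365 in wt males, RpL26 reached 405 and 330, and RpS28a had 378 and 57.2.

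On the autosomes RpL26 and RpL32 had the best mean rank over the lists. RpL26, a protein near the exit of the polypeptide tunnel, had a −log10 p of 405 (rank 242) in M1[wt] males at 3L:18898704-18899742 and 330 (rank 171) in wt males at 3L:18898728-18899739. Its summit lay 136 and 135 bases inside one end of the gene (3L:18898875-18900408). RpL32, widely used as a reference gene in fly expression work, had 316 in M1[wt] males at 3R:30045906-30047601 and 312 in wt males at 3R:30045939-30046704. The RpL32 summit lay 76 and 69 bases outside the gene (3R:30045229-30046161). Both genes stood closer to the summit than any other protein-coding gene.

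RpS3A, the single member on chromosome 4, had a −log10 p of 189 in M1[wt] males and 111 in wt males, 85 and 83 bases outside the gene. RpL8, a protein close to the peptidyl transferase centre, had 174 in M1[wt] males and 106 in wt males, 42 and 43 bases outside it. RpL8 was assigned 3 summits in each list, the most of any autosomal member. RpL23, a protein of the face that meets the small subunit, had 121 in M1[wt] males and 127 in wt males, 123 and 116 bases outside. RpS4 had 119 in M1[wt] males and 108 in wt males, 34 and 23 bases outside. The strongest summits of RpL8, RpL23 and RpS4 lay at nearly the same distance in both lists. RpL15 had 90.6 in M1[wt] males and 68.3 in wt males, 97 and 118 bases outside. RpS21 had 76.7 in M1[wt] males and 67.8 in wt males, 7 and 6 bases inside its end. These genes, RpL26 and RpL32 are the 8 of the 12 best-ranked autosomal members that lay closest to their summit, and it lay within 136 bases of a gene end at each.

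The other 4 of the 12 best-ranked autosomal members had their summit closer to another gene. RpS25 had a −log10 p of 312 in M1[wt] males and 168 in wt males, with the summit 61 and 46 bases from ZnT86D, a zinc transporter gene, and 428 and 443 bases from RpS25. The summit assigned to RpS28a lay within Mgat2, a glycosyltransferase gene, with 378 (rank 263) in M1[wt] males and 57.2 (rank 886) in wt males. RpS20 had 127 in M1[wt] males and 130 in wt males, 273 and 293 bases from the gene and 60 and 40 bases from CG17271. RpLP0-like, a relative of the stalk protein P0 that acts in ribosome assembly in yeast, had 131 in M1[wt] males and 91.6 in wt males from a summit in 14-3-3zeta. A summit between close genes cannot be credited to one of them from these lists.

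Peaks at the same autosomal genes were listed from both lines for 28 members, against 18.3% of all autosomal genes, where 28 of 78 is 35.9%. On the X this was 13 of 14, against 46.2%. As the lists share their control, this count is given as an account of the members only. In M1[wt] males alone 6 autosomal members had a peak (7.69%), near the 5.76% of all autosomal genes. RpL31 was the strongest of these, with a −log10 p of 184 at the very end of the gene in an interval 2921 bases wide. RpL27A had 51.5 from a summit in mRpL27, a mitochondrial ribosomal protein gene. RpL38 had 37.2, RpL36A 32.2 and RpL12 21.6 in M1[wt] males. In wt males alone there were 4 (5.13%, near the 4.05% of all autosomal genes), of which RpS7 had 23.8, RpL41 12.9, RpL4 11.9 and RpS16 11.4. Apart from RpS7 they lay below the median of the wt list. Where no peak is listed, binding was not measured as absent.

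Neither list had a peak at 40 autosomal members (51.3%), against 71.9% of all autosomal genes. Among them were the stalk protein genes RpLP0, RpLP1 and RpLP2, RpL3, a protein of the peptidyl transferase centre region, and RpL40, made as a fusion with ubiquitin. RpS2, RpS3, RpS18, RpS26 and RpS29 of the small subunit and RpL9, RpL13, RpL19, RpL21 and RpL37A of the large subunit were also without one. The nearest summit of either list lay a median of 6797 bases away, from 1131 bases at RpS15Ab to 128921 bases at RpL22-like. For 9 of the 40 it was within 2000 bases, as at RpLP0 (1432 bases in M1[wt] males and 1512 in wt males), and for 18 it was beyond 10000. Doubling the 1000-base limit would thus leave most of the 40 without a peak.

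Length did not set the autosomal members with a peak far apart from those without. In M1[wt] males the median lengths were 1294 bases with a peak and 1286 without, and in wt males they were 1364.5 and 1164 bases. The subunits did not stand apart on the autosomes either. A peak lay at 21 of 48 large-subunit genes and 13 of 30 small-subunit genes in M1[wt] males, and at 18 of 48 and 14 of 30 in wt males.

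Summits at autosomal members lay close to gene ends. The strand of the genes is not in the table used here, so the 5′ and 3′ ends are not told apart and distances are to the nearest end. Of the autosomal members with a peak, 21 of 34 had the strongest summit within 200 bases of an end in M1[wt] males (61.8%), against 37.2% of all autosomal genes with a peak. In wt males 19 of 32 did (59.4%), against 36.8%. Among autosomal genes of like length with a peak the shares were 48.2% and 42.9%. The members' median distance to an end was 110 bases in M1[wt] males and 117 in wt males, against 314 and 323 over all autosomal genes with a peak and 219 and 244.5 over those of like length.

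X-linked members had their summits farther from the ends than autosomal ones. The median distance was 453 bases in M1[wt] males and 311.5 in wt males, against 601 and 570 over all X-linked genes with a peak and 432 and 440.5 over those of like length. Within 200 bases of an end lay 4 of 13 strongest summits in M1[wt] males and 6 of 14 in wt males, or 30.8% and 42.9%. Over all X-linked genes with a peak the shares were 15.8% and 17.6%, and over those of like length 15.3% and 16.5%. With so few genes on the X these shares carry wide counting error. Inside the gene lay 6 of 13 in M1[wt] males and 5 of 14 in wt males for X-linked members (46.2% and 35.7%). The shares were 60.6% and 57.7% over all X-linked genes with a peak, and 45.2% and 48.9% over those of like length. For autosomal members it was 10 of 34 in M1[wt] males and 8 of 32 in wt males (29.4% and 25.0%), against 38.5% and 39.5% over all autosomal genes with a peak and 18.6% and 18.3% over those of like length. The autosomal members thus lay below all genes and above genes of like length in this share.

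**Figure D3:**
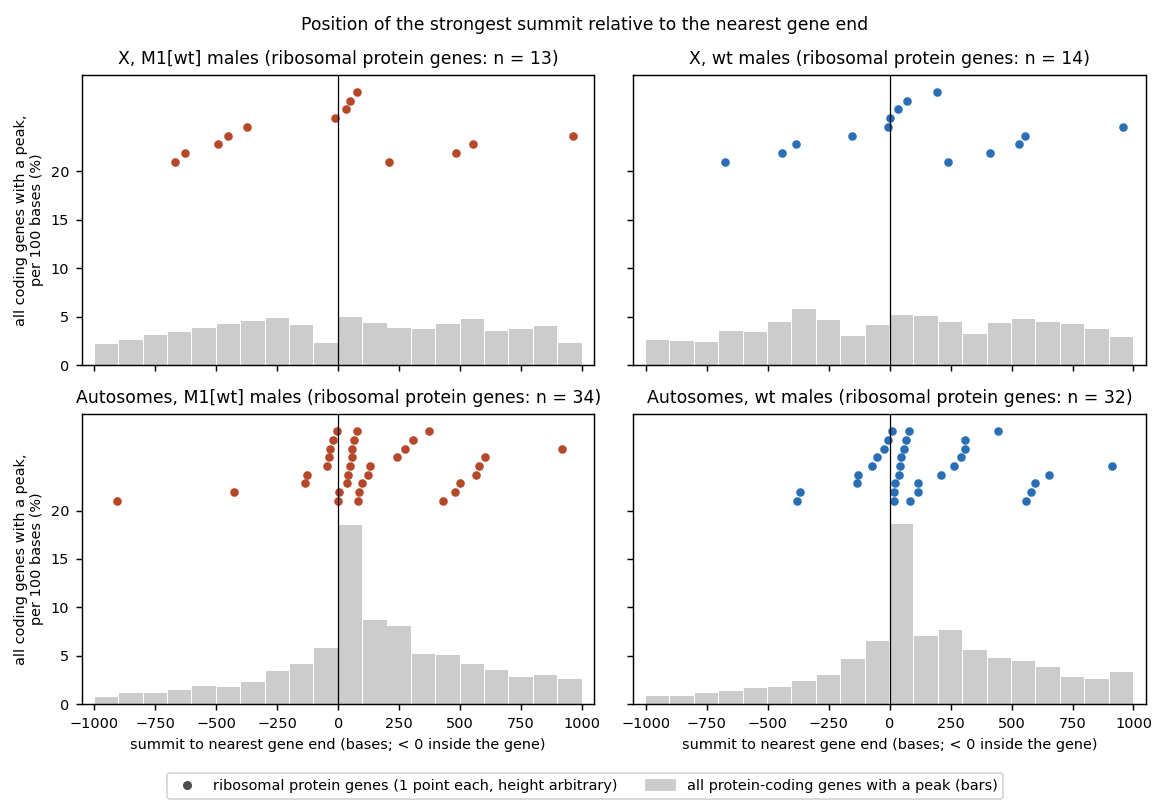
Distance in bases from the strongest MSL2 summit to the nearest end of the gene (negative inside the gene) for ribosomal protein genes (points, 1 per gene, height arbitrary) and all protein-coding genes with a peak (grey bars, percent per 100 bases), in M1[wt] males (left) and wt males (right); summits over 1000 bases inside a gene are not drawn. On the autosomes the points gather near 0, with medians of 110 and 117 bases, and on the X they spread more widely, with medians of 453 and 311.5 bases.

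Many summits lay beside the gene and not in it. With summits inside the gene alone, 8 of 14 X-linked members in each list had one, against 37.3% of X-linked genes in M1[wt] males and 39.1% in wt males. On the autosomes 11 of 78 did in M1[wt] males (14.1%), against 10.4%, and 8 of 78 in wt males (10.3%), against 9.89%. The autosomal members thus stood near the share of all autosomal genes when only gene bodies were counted, and above it once 500 bases on either side were added. At that distance 31 of 78 had a peak in M1[wt] males (39.7%, with 20.8% of all autosomal genes) and 27 of 78 in wt males (34.6%, with 19.2%). All autosomal genes are longer, with a median of 2099 bases against 1286 for autosomal members, and a longer body offers more room for a summit. Gene bodies of like length were not counted with every summit. By the strongest summit alone, 18.6% of autosomal genes of like length with a peak held it inside in M1[wt] males and 18.3% in wt males. For autosomal members with a peak these shares were 29.4% and 25.0%. Nearness to the background here therefore holds for genes of all lengths only.

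**Figure D4:**
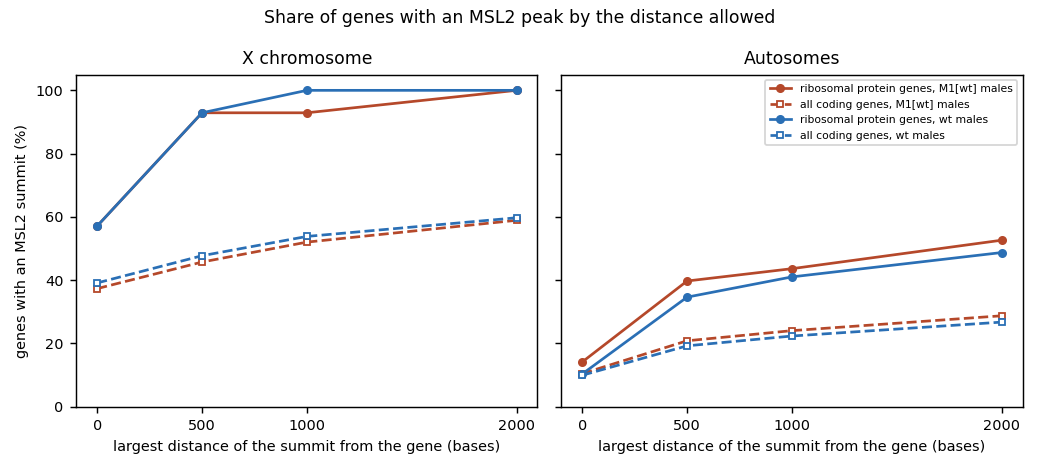
Percentage of ribosomal protein genes (solid lines) and all protein-coding genes (dashed lines) with an MSL2 summit at no more than 0, 500, 1000 or 2000 bases from the gene, on the X (left) and autosomes (right), in M1[wt] males (red) and wt males (blue). Autosomal members started at 14.1% and 10.3% inside the gene and reached 39.7% and 34.6% at 500 bases.

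Neighbouring genes lay within reach of most of these summits. The counts by neighbour were not made over all genes with a peak, so they are an account of the members only. On the autosomes another protein-coding gene was closer to the strongest summit than the member in 12 of 34 cases in M1[wt] males and 12 of 32 in wt males, and on the X in 3 of 13 and 5 of 14. With each summit credited to the nearest coding gene alone, 23 of 78 autosomal members kept one in M1[wt] males and 20 in wt males. The share of all autosomal genes fell as well, from 24.0% to 15.8% in M1[wt] males and from 22.3% to 14.7% in wt males. On the X 12 of 14 members kept one in each list, with 41.6% and 43.1% of all X-linked genes. The strongest summit lay inside another annotated gene at 7 autosomal and 4 X-linked members in each list. No other protein-coding gene lay within 1000 bases of it at 6 autosomal and 4 X-linked members in M1[wt] males, and at 5 autosomal and 2 X-linked members in wt males. In both lists RpL30 was one of these genes, and its −log10 p was 24.2 in M1[wt] males and 51.9 in wt males, while RpS23 was another, with 50.1 in M1[wt] males and 44.9 in wt males. RpL10 had 26.9 in M1[wt] males and 13.7 in wt males, also with no coding neighbour in reach. RpL15 and RpS3A, described above, were the other autosomal members of this kind in both lists, and over all 5 the summit lay within 118 bases of an end of the gene.

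By symbol, paralogues among the members form 13 groups with 27 genes, and 7 groups have 1 X-linked gene. In these the X-linked gene had a peak in 6 of 7 groups in M1[wt] males and 7 of 7 in wt males, against 52.0% and 53.8% of all X-linked genes. Of the 8 autosomal partners 2 had one in each list, near the 24.0% and 22.3% of all autosomal genes. RpL22, RpL37-1 and RpS10b had peaks in both lists, and their partners RpL22-like, RpL37-2 and RpS10a had none in either. RpS15Aa had one in wt males and RpS15Ab had none. In flies RpS10a and RpL22-like are known as copies used mainly in gonads.

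The autosomal partners with a peak were RpS19b and RpS28a. RpS19b, the germline copy of RpS19a, had a −log10 p of 15.7 in M1[wt] males and 15.8 in wt males from a summit within the neighbouring gene CG5854. The summit of RpS28a lay in Mgat2, as given above, and RpS28-like had none. Among groups with no X-linked gene, RpL7 had 62.1 in M1[wt] males and 59.3 in wt males inside the gene, and RpL7-like had none. RpL34b had 35.6 in M1[wt] males and 32.9 in wt males inside the gene, and RpL34a had none. RpL24-like, related to a ribosome assembly factor of yeast, had 12.1 in M1[wt] males and 23.3 in wt males from a summit within CG5276, and RpL24 had none. RpL10Aa and RpL10Ab lacked a peak in both lists, with the nearest summit over 10000 bases away. The groups differ in chromosome as well as in the use of their copies, and these cannot be told apart here.

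Other genes of the ribosome were taken from a list of 36 names for assembly factors, associated proteins and regulators, of which 33 matched a gene. Of the 5 that are X-linked, 5 had a peak in M1[wt] males, against 52.0% of all X-linked genes, and 4 in wt males, against 53.8%. On the autosomes 9 of 28 did in M1[wt] males (32.1%) and 11 of 28 in wt males (39.3%), against the 24.0% and 22.3% given above. The gene sta encodes the small-subunit protein RpSA but lies outside the symbol rule. Its peak exceeded that of every member, with a −log10 p of 1019 (rank 88) in M1[wt] males and 839 (rank 61) in wt males, 212 and 208 bases from the gene. Trf2, a factor of ribosomal protein gene promoters, had 547 in M1[wt] males and 78.5 in wt males. On the autosomes eIF6, which keeps the subunits apart, had 450 in M1[wt] males and 83.3 in wt males, and the nucleolar gene nop5 had 150 and 144.

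Mitochondrial ribosomal protein genes, taken by the prefix mRpL or mRpS, are the closest set by function. Of those on the X 7 of 11 had a peak in M1[wt] males (63.6%, with 52.0% of all X-linked genes) and 10 of 11 in wt males (90.9%, with 53.8%). Of the autosomal ones 28 of 62 did in M1[wt] males (45.2%, with 24.0% of all autosomal genes) and 19 of 62 in wt males (30.6%, with 22.3%). Cytosolic members with a peak had the higher median −log10 p in each class. It was 57.0 for cytosolic against 40.9 for mitochondrial genes on the autosomes in M1[wt] males, and 56.8 against 28.5 in wt males. On the X the medians were 53.9 against 18.9 in M1[wt] males and 40.9 against 18.4 in wt males. Over all autosomal genes with a peak the medians were 44.6 and 31.2. These differences carry no test.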

How the data were processed

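Peak lists of MSL2 in M1[wt] males and wt males were used, and the other samples were not analysed here. Per the submitters' processing notes, the builds dm6 and dm3 and the tools MACS2, Bowtie2, cutadapt, deepTools and Picard were used, with no role, order or settings given. The lists the authors deposited have 20 columns and no header, in the layout of the irreproducible discovery rate (IDR) method for 2 replicate calls. The labels neither name that tool nor explain the calls, which were not used as replicates here. In the deposited lists the −log10 p of a peak equals the lower of the −log10 p values of the calls in all 3944 and 3799 rows. The deposited score rescales the global IDR, which is 0.05 or less in every row. The other columns the authors deposited hold positions (taken as 0-based and printed 1-based) and a placeholder in place of signal and q.

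Sequence names in the lists are those of dm6, which is Release 6. Ranks run over the whole list by −log10 p. Peaks on X, 2L, 2R, 3L, 3R and 4 were used, leaving out 9 M1[wt] and 11 wt peaks elsewhere. Genes came from an NCBI RefSeq table of Release 6, which has no strand or exons, and no sequence was used. Planned motif counts and the split into 5′ and 3′ sides were therefore not made. Where several summits fell in a gene's window the strongest was taken. Summit assignment was tested on simulated data. The genes of like length and 3 alternatives were chosen after seeing the data. A few members are counted but not reported here by name. Named genes are otherwise all X-linked members, the 12 autosomal members with the best mean rank, those listed from 1 line only, and paralogues by symbol. RpL30, RpS23, RpL10, RpS13, the examples without a peak and the regulators were named after their values were seen. Members and lists were chosen with earlier results of these data known. Alternatives were the window, the assignment rule, the IDR limit, the strength limit and the replicate call. Tools were Python 3.11.15, pandas 2.3.3, numpy 2.4.6, scipy 1.17.1 and matplotlib 3.10.9.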

Additional observations from a re-analysis of the deposited data

How the results depend on the processing

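No paired analysis was possible because each group has 1 sample, and no sample could be left out for the same reason. Counts within 1.5 times the reported value held with summits within 500 or 2000 bases, by peak interval, at a global IDR of 0.01 or less or 0.001 or less, and without the -like genes. Other settings moved them, and the cause was not tested beyond the setting itself, which admits fewer or more summits. With summits inside the gene, members with a peak numbered 8 in M1[wt] males, 8 in wt males and 8 in both lists for X-linked genes, and 11, 8 and 6 for autosomal genes. At a −log10 p of at least 50 they numbered 7, 3 and 3 for X-linked genes and 20, 18 and 15 for autosomal genes. The background fell with them, to 28.5% and 22.6% of X-linked and 11.2% and 7.39% of autosomal genes. Counted in both lists, a summit inside the gene was found for 31.0% of all X-linked and 7.03% of all autosomal genes. The strength limit was met in both by 19.8% of all X-linked and 6.40% of all autosomal genes. Against these shares, which are over genes of all lengths, 6 of 78 autosomal members (inside the gene) and 3 of 14 X-linked members (strength limit) stood near background. The other both-list counts, 8 of 14 and 15 of 78, stood above it. With each summit credited to the nearest gene alone, 20 autosomal members kept one in wt males (background 14.7%). Without members whose strongest summit lay closer to another gene, an alternative chosen after seeing the data, 9 remained on the X in wt males, and 22 on the autosomes in M1[wt] males and 20 in wt males.

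With summits within 2000 bases the median distance to a gene end was 758.5 bases in M1[wt] males and 486.5 in wt males for X-linked members and 240 and 237 for autosomal members, and 7.14% of X summits in M1[wt] males lay within 200 bases of an end. Taking the summit nearest to either end (added after seeing the data, since the planned choice by gene start needs strand) gave a median of 175.5 bases on the X in wt males. It also gave median −log10 p values of 29.2 in M1[wt] males and 26.1 in wt males on the X. Of the strengths of single genes under other replicate calls or summits, 28 moved by more than 1.5 times and 251 did not. Many of the 251 had no room to move. The reported value is the lower of the calls and so equals 1 of them, and a member with 1 summit keeps its value whichever summit is chosen. Choosing the summit nearest to either end moved 11 strengths. In M1[wt] males 4 of 13 X-linked and 6 of 34 autosomal members with a peak had 2 or more summits. In wt males 6 of 14 and 2 of 32 did. Over all X-linked genes with a peak it was 553 of 1140 in M1[wt] males and 613 of 1179 in wt males. Over all autosomal genes with a peak it was 516 of 2817 and 480 of 2617.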

Other observations

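Members with a peak lay on every large autosomal arm, with few members on each. On 3L 8 of 14 had one in M1[wt] males and 8 of 14 in wt males, with 24.0% and 21.5% of all protein-coding genes of that arm. On 2L it was 8 and 6 of 19, with 23.2% and 21.5%, on 2R 8 and 7 of 21, with 22.4% and 21.7%, and on 3R 9 and 10 of 23, with 25.6% and 24.1%. These counts were looked at after the data were seen and were not tested.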
